A study of Mus musculus with 35 samples.

Results

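Genes of the tricarboxylic acid (TCA) cycle, of pyruvate entry into it and of branched-chain amino acid breakdown were followed in mouse quadriceps muscle. They were 39 of the 19938 genes measured, chosen by name: 18 genes of the TCA cycle, 7 of the pyruvate dehydrogenase complex and its regulators, and 14 of branched-chain amino acid catabolism. All 39 were found by an exact match of the annotated symbol. Suclg2 and Hibadh had several array rows, of which the brightest on average was taken. The samples were quadriceps RNA from female mice aged 2 months, 1 array per mouse, in 4 classes: controls, Mstn-null mice, mice given 1 dose of ActRIIB-Fc and mice given 4 doses of it. The product of Mstn is myostatin, which muscle secretes and which limits its growth, and ActRIIB-Fc is a soluble activin type IIB receptor that acts as a decoy for myostatin and related ligands. A first experiment had 3 mice in each class, and an independent follow-up experiment had 8 Mstn-null mice and 5 mice in each of the other classes. The mouse strain, the relation of Mstn-null mice to the controls, any vehicle, the amount of a dose and the time from dosing to dissection are not given in the sources used here.

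The TCA cycle oxidises acetyl-CoA in the mitochondrion and hands the electrons to the respiratory chain. Pyruvate from glycolysis enters through the pyruvate dehydrogenase complex, which pyruvate dehydrogenase kinases switch off by phosphorylation and pyruvate dehydrogenase phosphatases switch on. Leucine, isoleucine and valine are first transaminated, largely in muscle, and then oxidised by a branched-chain keto acid dehydrogenase of the same architecture, with a kinase of its own. Their carbon ends as acetyl-CoA or succinyl-CoA, so the last steps run into the cycle. Both pathways lie in mitochondria, which are more abundant in slow and oxidative fibres than in glycolytic ones.

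Sequences just before the start site are shown for members that carry a motif of a factor known to act on mitochondrial genes. The letters searched, on both strands, were GCGCA followed by any base and GCGC for NRF1, TNAAGGTCA for the oestrogen-related receptors and CCGGAAGT for ETS factors. The windows were the RefSeq promoters of mouse build GRCm38.p6, from 250 bases before to 50 bases after the start, and 35 of the 39 genes had one. Sdhc, Idh3a, Dbt and Pdp1 were not matched. The NRF1 letters stood in a promoter of 6 of the 35 genes (17.1%), namely Sdha, Sdhd, Sucla2, Dld, Hibadh and Pccb, against 5.19% of 27025 genes with a promoter in the table. The oestrogen-related receptor letters stood in 1 of 35 (Sdhd, as TGACCTTGA on the opposite strand at position 36 after the start) against 1.43%. Those of ETS factors stood in 1 of 35 (Dlst) against 4.31%. The shorter core AAGGTCA, which lies within the oestrogen-related receptor letters, stood in 2 of 35 (Sdhd and Ogdh) against 5.38%. These matches describe letters only, and binding was not measured. The 250 bases before the start of Sdha (chr13:74350241-74350490, minus strand), Sdhd (chr9:50603850-50604099, minus strand) and Sucla2 (chr14:73552536-73552785, plus strand) are given 5′ to 3′ along the gene, with the NRF1 letters in capitals. Sdha had 3 matches, beginning at -98, -55 and -10 from the start, while Sdhd had 1 at -79 and Sucla2 had 1 on the opposite strand at -17.
Sdha: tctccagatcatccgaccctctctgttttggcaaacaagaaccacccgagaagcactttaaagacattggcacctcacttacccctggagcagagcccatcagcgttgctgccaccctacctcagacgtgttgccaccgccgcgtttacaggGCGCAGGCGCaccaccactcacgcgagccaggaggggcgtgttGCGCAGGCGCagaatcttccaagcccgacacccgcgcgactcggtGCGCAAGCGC
Sdhd: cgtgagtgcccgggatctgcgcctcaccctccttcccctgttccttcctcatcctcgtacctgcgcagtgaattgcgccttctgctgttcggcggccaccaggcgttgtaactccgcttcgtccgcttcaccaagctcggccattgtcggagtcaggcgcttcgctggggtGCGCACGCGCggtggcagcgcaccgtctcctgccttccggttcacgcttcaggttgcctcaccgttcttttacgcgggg
Sucla2: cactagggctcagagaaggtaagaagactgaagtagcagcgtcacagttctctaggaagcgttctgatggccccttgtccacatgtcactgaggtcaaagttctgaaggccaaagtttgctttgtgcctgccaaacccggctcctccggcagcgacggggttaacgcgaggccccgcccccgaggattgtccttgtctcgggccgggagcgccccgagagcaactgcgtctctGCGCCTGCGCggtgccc

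Values are log2 expression values as deposited, so a difference of 1 is a doubling, and they were compared only within an experiment because experiment 2 ran higher throughout. The tissue was checked with 6 muscle fibre markers (Acta1, Ckm, Des, Tnnt3, Myh4 and Mylpf), whose mean value lay between 11.41 and 11.55 on the arrays of experiment 1 and between 13.28 and 13.60 in experiment 2. Mstn itself was lower in Mstn-null muscle, at 5.78 to 6.69 against 6.77 to 7.68 in controls of experiment 1 and at 6.29 to 7.84 against 9.84 to 10.21 in experiment 2; the labels do not say where its probes lie relative to the deletion. A gene is said to pass, or to be called, at an adjusted p under 0.05 from limma, fitted to the 35 arrays together with terms for class and for experiment and adjusted over the 19938 genes after Benjamini and Hochberg. In whole muscle RNA, fewer cells of a type and less RNA per cell cannot be told apart.

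Mstn-null muscle had lower transcripts of nearly every gene of the 3 groups. Of the 39 genes, 36 fell and 1 rose against control, where 41.8% of all genes passed, 16.4% as lower and 25.4% as higher. The median log2 change was -0.51 over the 39 genes and 0.09 over all genes. Among the 1994 genes with the highest mean value, which include 34 of the 39, 43.6% fell (median change -0.19). All 18 TCA cycle genes fell (median -0.54), 5 of 7 pyruvate dehydrogenase genes fell and Pdk2 rose (median -0.45), and 13 of 14 branched-chain genes fell (median -0.42). Pdp1 and Bckdk did not pass. A fall of 2-fold or more was seen in 6 genes: Sucla2, Dld, Idh2, Pdha1, Mdh1 and Acadsb. Every comparison against control uses the same control arrays.

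**Figure D1:**
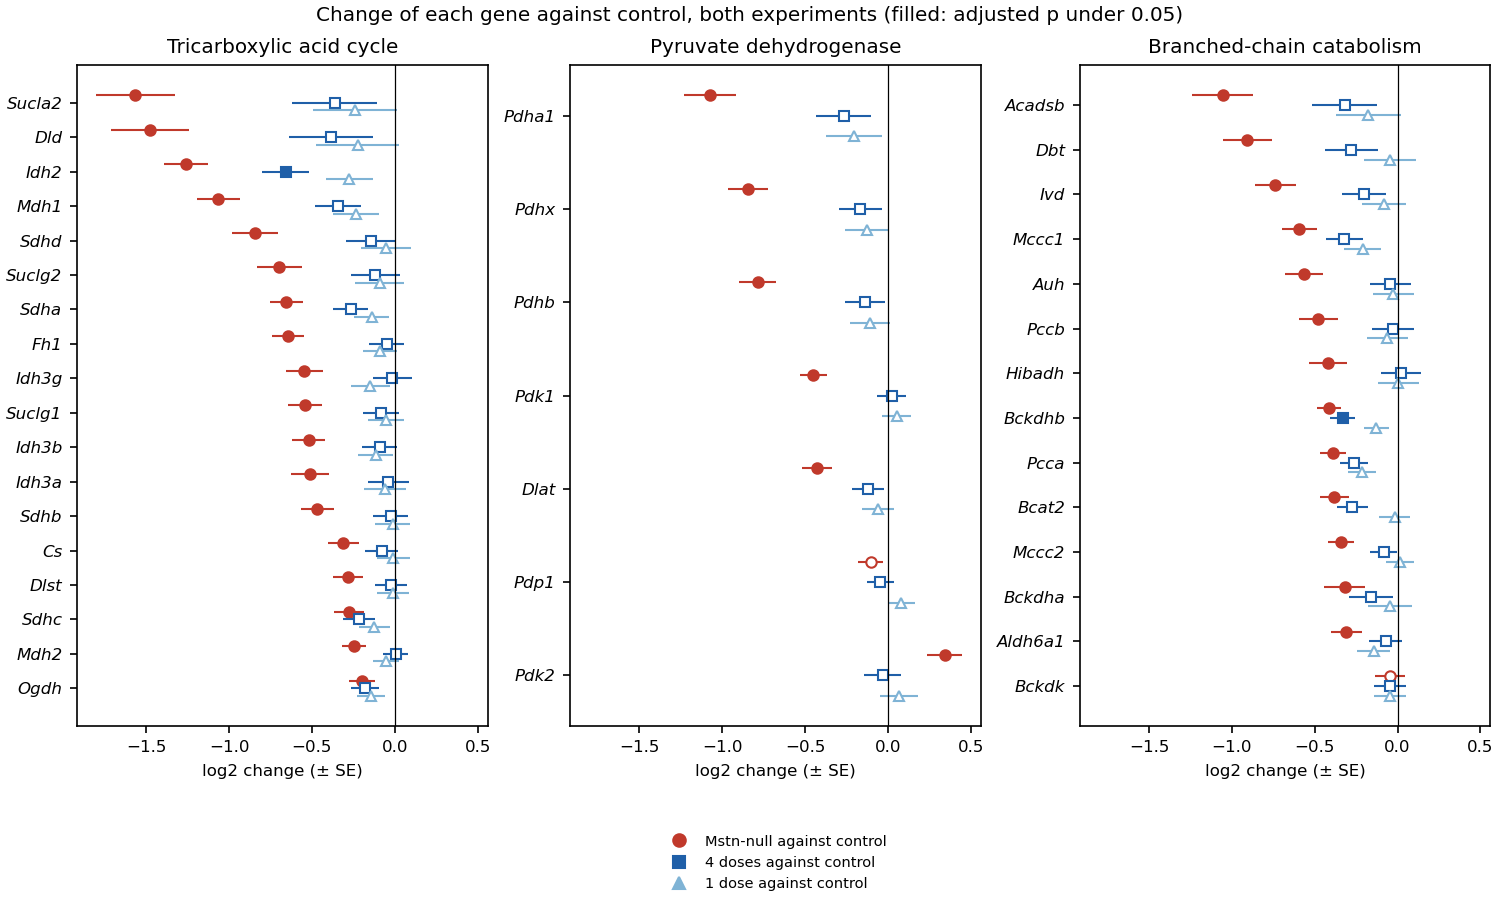
Log2 change of each of the 39 genes against control (horizontal axis, ± SE from the limma fit over both experiments), with genes in rows by pathway and filled symbols for adjusted p under 0.05. Mstn-null muscle (red circles) is left of 0 for all genes but Pdk2, while after 4 doses (blue squares) only Idh2 and Bckdhb are filled and after 1 dose (light triangles) none is.

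Among the genes grouped here with the cycle, Idh2 had the smallest p. It encodes the mitochondrial isocitrate dehydrogenase that makes NADPH. In experiment 1 its log2 value was 9.27, 9.03 and 9.44 in controls and 7.43, 8.13 and 8.02 in Mstn-null mice. Experiment 2 gave 10.29, 10.40, 10.40, 10.46 and 10.27 in controls, and the lowest, median and highest of the 8 Mstn-null mice were 8.38, 9.41 and 9.61. Every Mstn-null array lay below every control array in both experiments. The change was -1.26 ± 0.13 (SE), a 2.40-fold fall (limma adjusted p = 6.93e-08).

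Mdh1 encodes the cytosolic malate dehydrogenase of the malate-aspartate shuttle. It measured 10.16, 9.90 and 10.12 in controls of experiment 1 against 8.95, 9.10 and 9.30 in Mstn-null mice. Controls of experiment 2 gave 12.32, 12.47, 12.54, 12.50 and 12.48, and Mstn-null mice a lowest value of 10.52, a median of 11.31 and a highest of 12.07. The classes did not overlap in either experiment, although the Mstn-null mice of experiment 2 were widely spread. The change was -1.06 ± 0.13 (SE), with limma adjusted p = 6.18e-07. Its mitochondrial counterpart Mdh2 fell by less, with a change of -0.25 ± 0.07 (SE, limma adjusted p = 0.00788). The Mdh2 call was lost under 6 of the 46 alternatives run for this comparison, among them experiment 1 alone (limma adjusted p = 0.127), experiment 2 alone (0.0912) and quantile normalization (-0.12, adjusted p = 0.133).

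Sucla2, the subunit of succinyl-CoA ligase that works with ADP, had the largest fall of the 39 genes. Control values were 9.21, 9.51 and 9.50 in experiment 1, where Mstn-null values were 7.99, 8.14 and 8.37. In experiment 2, controls measured 11.37, 11.42, 11.52, 11.55 and 11.62, while the Mstn-null mice ranged from 8.89 through a median of 9.74 to 11.38. The classes stood apart in experiment 1, and in experiment 2 only the highest Mstn-null array, replicate 5, reached the lowest control. Its change was -1.57 ± 0.24 (SE), a 2.96-fold fall (limma adjusted p = 1.25e-05). The other succinyl-CoA ligase genes fell by less, Suclg2 (the subunit that works with GDP) with a change of -0.70 and Suclg1 (the shared subunit) with -0.54. Suclg2 had 2 array rows, and whether the row taken measures that gene alone was not tested.

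Fh1 encodes fumarase, which hydrates fumarate to malate. Its values were 9.36, 9.33 and 9.44 in controls and 8.61, 8.98 and 9.05 in Mstn-null mice of experiment 1. They were 10.85, 10.91, 10.93, 10.92 and 10.75 in controls of experiment 2, with 9.70, 10.11 and 10.72 as the lowest, median and highest in Mstn-null mice. The classes did not overlap in either experiment. The change was -0.65 ± 0.10 (SE, limma adjusted p = 9.00e-06).

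The other cycle enzymes fell by different amounts. Among the 4 subunits of succinate dehydrogenase, which is also complex II of the respiratory chain, the change was -0.84 for the membrane anchor Sdhd, -0.65 for the flavoprotein Sdha, -0.47 for the iron-sulphur subunit Sdhb and -0.28 for the other anchor Sdhc. The NAD-dependent isocitrate dehydrogenase genes fell nearly alike, with changes of -0.55 for Idh3g, -0.52 for Idh3b and -0.51 for Idh3a. The 2-oxoglutarate dehydrogenase complex did not move as a block: its lipoamide dehydrogenase Dld had a change of -1.48 ± 0.23 (SE, limma adjusted p = 2.17e-05), its succinyltransferase Dlst -0.28 and its first enzyme Ogdh -0.20. The calls of Sdhc and Dlst were each lost under 5 of the 46 alternatives, among them quantile normalization (-0.05, limma adjusted p = 0.677, and -0.06, adjusted p = 0.550) and experiment 1 alone (adjusted p = 0.623 and 0.943). Dld also serves the pyruvate and the branched-chain keto acid dehydrogenases. Citrate synthase (Cs), often used as a marker of mitochondrial content, had a change of -0.31 ± 0.09 (SE, limma adjusted p = 0.00922). The classes overlapped for Cs in both experiments, and its call was lost under 5 of the 46 alternatives, among them quantile normalization (-0.07, limma adjusted p = 0.544) and experiment 1 alone (adjusted p = 0.265).

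Ogdh had the smallest change of the cycle. It measured 10.36, 9.92 and 10.20 in controls against 9.85, 10.05 and 10.07 in Mstn-null mice of experiment 1, where the classes overlapped. In experiment 2, controls lay at 11.91, 11.93, 12.01, 11.91 and 11.94 and Mstn-null mice at 11.36 (lowest), 11.76 (median) and 12.01 (highest), again with overlap. Its change of -0.20 ± 0.08 (SE) passed narrowly (limma adjusted p = 0.0436), was no longer called without 1 or another of 12 arrays, and after quantile normalization was 0.04 (adjusted p = 0.766).

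The catalytic core of the pyruvate dehydrogenase complex fell as a whole. Pdhb, the beta subunit of its first enzyme, had log2 values of 9.31, 9.49 and 9.28 in controls of experiment 1 and 8.85, 8.86 and 8.81 in Mstn-null mice. In experiment 2 the controls gave 11.27, 11.16, 11.30, 11.41 and 11.38, and the Mstn-null mice 9.83, 10.43 and 11.05 as lowest, median and highest. The classes stood apart in both experiments. Its change was -0.79 ± 0.11 (SE), with limma adjusted p = 4.22e-06.

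Pdhx, which holds the lipoamide dehydrogenase in the complex, measured 7.26, 7.25 and 7.44 in controls and 6.72, 6.52 and 6.57 in Mstn-null mice of experiment 1. Controls of experiment 2 measured 8.999, 9.22, 9.14, 9.41 and 9.26, against a lowest of 7.75, a median of 8.29 and a highest of 8.89 in Mstn-null mice. No Mstn-null array reached a control in either experiment. The change was -0.84 ± 0.12 (SE, limma adjusted p = 5.92e-06). Pdha1, the alpha subunit of the first enzyme and the site that the kinases phosphorylate, had a change of -1.07 ± 0.16 (SE) and Dlat, the acetyltransferase, one of -0.43 ± 0.09 (SE).

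The regulators did not move together. Of the kinases among the 39 genes, Pdk1 fell with a change of -0.45 ± 0.08 (SE, limma adjusted p = 0.000105), whereas Pdk2 was the sole gene of the 39 that rose. Pdk2 measured 9.85, 9.42 and 9.76 in controls of experiment 1 and 10.06, 10.0003 and 9.97 in Mstn-null mice, so the classes stood apart. In experiment 2 it measured 11.28, 11.25, 11.35, 11.16 and 11.28 in controls, and 11.18, 11.72 and 11.97 were the lowest, median and highest in Mstn-null mice. There 5 of the 8 Mstn-null arrays exceeded every control and the others lay within the control range. The change was 0.34 ± 0.10 (SE, limma adjusted p = 0.0101). Its call was lost under 3 of the 46 alternatives. These were arrays centred on their medians (0.25, limma adjusted p = 0.0808), the interquartile range of each array as a covariate, and experiment 1 alone. Pdp1, a phosphatase catalytic subunit, did not pass, with a change of -0.10 ± 0.08 (SE, limma adjusted p = 0.256). Its values were 8.03, 7.90 and 7.78 in controls against 8.06, 7.96 and 7.98 in Mstn-null mice of experiment 1. In experiment 2 they were 9.49, 9.54, 9.58, 9.62 and 9.45 in controls, and 9.08, 9.31 and 9.57 were the lowest, median and highest in Mstn-null mice. The classes overlapped in both experiments.

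**Figure D2:**
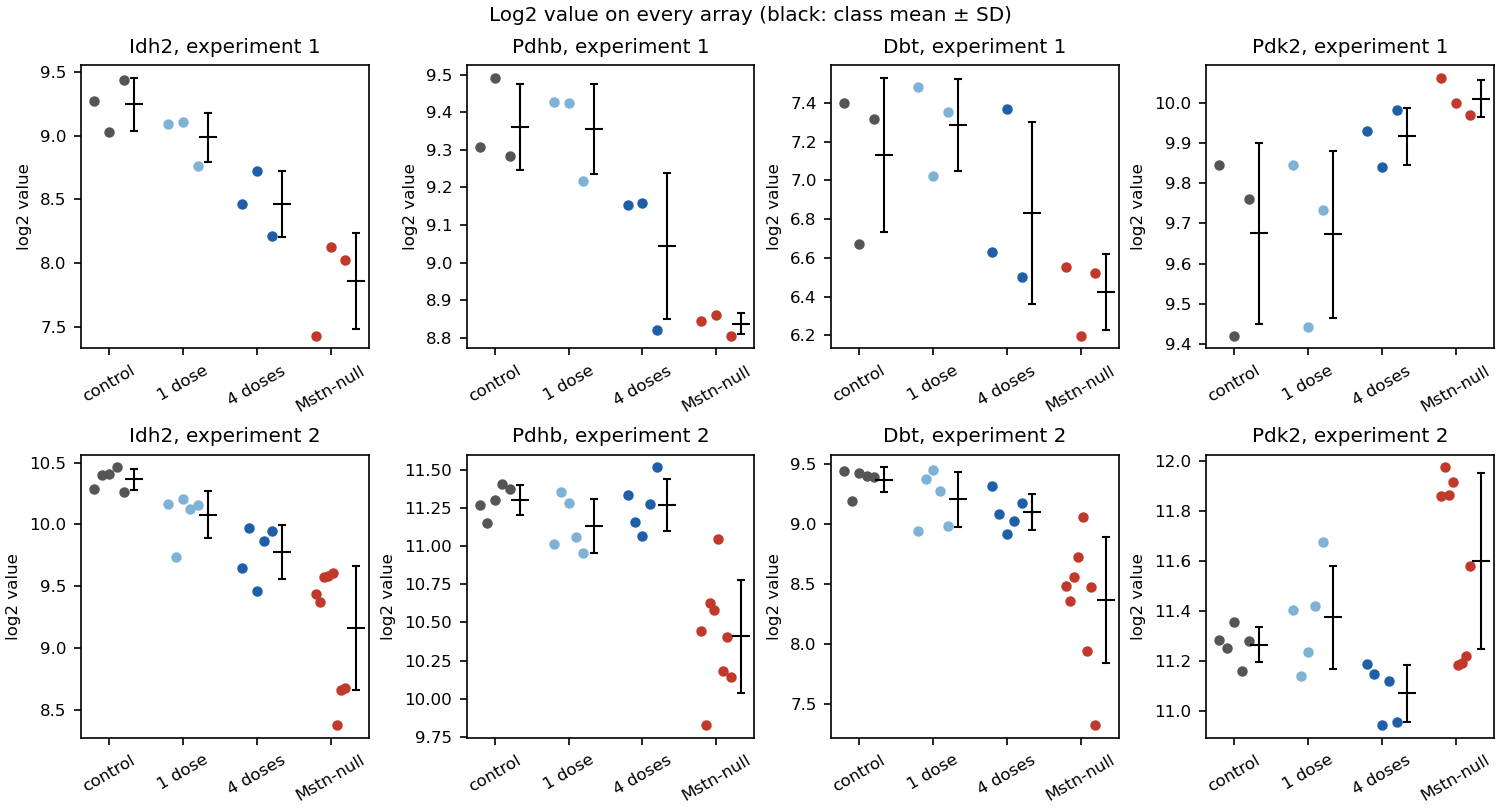
Log2 value of Idh2, Pdhb, Dbt and Pdk2 on every array (points), by class, with experiment 1 above and experiment 2 below and the class mean ± SD in black. Idh2 and Pdhb of Mstn-null mice lie below every control in both experiments, and Pdk2 of 5 of the 8 Mstn-null mice in experiment 2 lies above every control.

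In branched-chain catabolism the committed step and the later acyl-CoA steps both fell. Dbt, the acyltransferase core of the branched-chain keto acid dehydrogenase, measured 7.40, 6.67 and 7.31 in controls and 6.55, 6.20 and 6.52 in Mstn-null mice of experiment 1. In experiment 2 it measured 9.45, 9.20, 9.43, 9.40 and 9.40 in controls, with 7.33, 8.48 and 9.06 as lowest, median and highest in Mstn-null mice. Both experiments showed no overlap, although control replicate 2 was low in each. The change was -0.91 ± 0.15 (SE, limma adjusted p = 3.03e-05). The other subunits of that enzyme fell by less, with changes of -0.41 for Bckdhb and -0.32 for Bckdha. The Bckdha call was lost under 14 of the 46 alternatives: without 1 or another of 7 arrays, and under 7 others that include experiment 1 alone (limma adjusted p = 0.210), experiment 2 alone (0.193) and quantile normalization (-0.11, adjusted p = 0.520).

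Bckdhb, the beta subunit of the first enzyme of that complex, measured 7.22, 6.95 and 7.38 in controls and 6.67, 6.84 and 6.88 in Mstn-null mice of experiment 1. It measured 9.32, 9.10, 9.34, 9.38 and 9.30 in controls of experiment 2, and 8.59, 8.91 and 9.04 as lowest, median and highest in Mstn-null mice. The classes stood apart in both, and its SE was the smallest of the branched-chain genes (change -0.41 ± 0.07, limma adjusted p = 5.21e-05). Bcat2, the mitochondrial aminotransferase that starts the pathway, had a change of -0.38 ± 0.09 (SE, limma adjusted p = 0.00104).

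Ivd, the leucine-branch isovaleryl-CoA dehydrogenase, measured 8.94, 8.62 and 8.77 in controls against 7.54, 8.07 and 8.27 in Mstn-null mice of experiment 1. In experiment 2 it measured 10.42, 10.35, 10.56, 10.36 and 10.26 in controls and 9.02, 9.78 and 10.28 as lowest, median and highest in Mstn-null mice. The highest Mstn-null array of experiment 2 overlapped the lowest control, and experiment 1 showed no overlap. The change was -0.74 ± 0.12 (SE, limma adjusted p = 4.26e-05). Acadsb, the short/branched-chain acyl-CoA dehydrogenase of the isoleucine branch, measured 7.53, 7.47 and 7.72 in controls and 6.69, 6.64 and 7.09 in Mstn-null mice of experiment 1. Controls of experiment 2 gave 9.77, 9.60, 9.81, 9.75 and 9.78, and Mstn-null mice 7.57, 8.55 and 9.65 as lowest, median and highest. It had the largest fall of the branched-chain genes, with a change of -1.06 ± 0.18 (SE, limma adjusted p = 6.14e-05) and overlap at 1 Mstn-null array in experiment 2.

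The remaining leucine genes fell: Mccc1 and Mccc2, the subunits of methylcrotonyl-CoA carboxylase, with changes of -0.59 and -0.34, and Auh, methylglutaconyl-CoA hydratase, with -0.56. In the valine branch the change was -0.42 for Hibadh, which oxidises 3-hydroxyisobutyrate, and -0.31 for Aldh6a1, which makes propionyl-CoA. The Hibadh call depended on the array row: with its rows averaged the change was -0.14 (limma adjusted p = 0.348), and in experiment 1 alone it was -0.01 (adjusted p = 0.987). The Aldh6a1 call was lost under 5 of the 46 alternatives, among them experiment 1 alone (-0.05, limma adjusted p = 0.927) and quantile normalization (-0.07, adjusted p = 0.541). Propionyl-CoA carboxylase, where isoleucine and valine meet, had changes of -0.39 for Pcca and -0.48 for Pccb. Bckdk, the kinase that switches the branched-chain keto acid dehydrogenase off, had the smallest change of all 39 genes, at -0.05 ± 0.09 (SE, limma adjusted p = 0.698), with a 95% confidence interval from -0.23 to 0.14. Its values were 9.09, 8.46 and 8.85 in controls and 8.78, 8.85 and 8.96 in Mstn-null mice of experiment 1. In experiment 2 they were 10.57, 10.67, 10.67, 10.56 and 10.40 in controls, and 10.005, 10.52 and 10.76 were the lowest, median and highest in Mstn-null mice. The classes overlapped in both experiments.

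**Figure D3:**
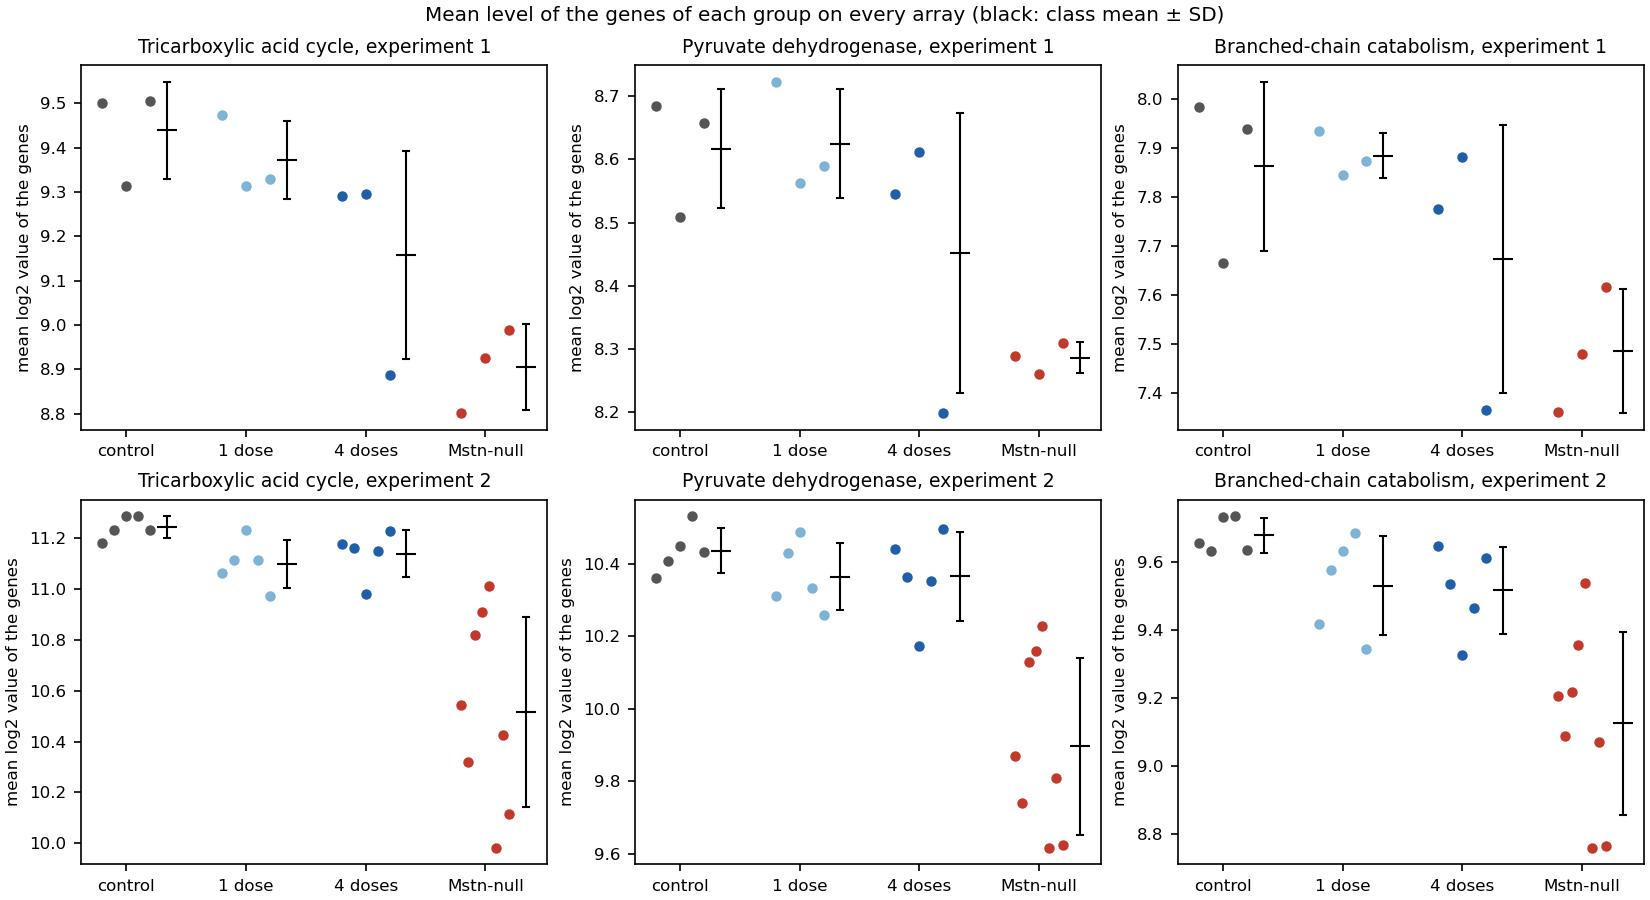
Mean log2 value of the genes of each pathway group on every array (points), by class and experiment, with the class mean ± SD in black. The Mstn-null arrays lie below every control for all 3 groups in both experiments, and in experiment 1 the array of 4 doses, replicate 3, lies near them.

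Averaged over its genes, each group stood apart. The mean log2 value of the 18 TCA cycle genes was 9.31 to 9.51 in controls and 8.80 to 8.99 in Mstn-null mice of experiment 1, and 11.18 to 11.29 against 9.98 to 11.01 in experiment 2. For the 7 pyruvate dehydrogenase genes it was 8.51 to 8.68 against 8.26 to 8.31 and 10.36 to 10.53 against 9.62 to 10.23. For the 14 branched-chain genes it was 7.66 to 7.98 against 7.36 to 7.61 and 9.63 to 9.74 against 8.76 to 9.54. Mstn-null arrays varied far more in experiment 2 (SD 0.38 for the TCA cycle, n = 8) than controls did (SD 0.04, n = 5). Of those Mstn-null arrays, replicates 6, 8, 2 and 7 had the lowest TCA cycle means, 9.98, 10.11, 10.32 and 10.43. They also had the narrowest interquartile ranges over all genes, 2.14, 2.19, 2.22 and 2.15. Replicates 1, 3, 4 and 5 had means of 10.54, 10.82, 10.91 and 11.01 and ranges of 2.31, 2.42, 2.41 and 2.38. The part of the range in this spread was not tested.

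The direction was shared by the experiments, and the size was not established to differ. Fitted alone, experiment 1 called 9 of the 39 genes, all lower, where 1.99% of all genes passed as lower: Idh2, Mdh1, Sucla2, Sdha, Dld, Pdhb, Pdhx, Pdha1 and Ivd. Experiment 2 alone called 34, where 43.9% of all genes passed. The change had the same sign in both for 37 of 39 genes, and it was larger in size in experiment 2 for 30. Tested directly as a difference between the experiments, 0 of 39 genes passed (1.68% of all genes did, and 5 of the 39 were past an unadjusted p of 0.05). The smallest adjusted p in that limma test was 0.122, for Hibadh. Without Mstn-null replicate 5 of experiment 2, Hibadh and Idh3b passed it, with differences of -0.68 (adjusted p = 0.0486) and -0.59 (adjusted p = 0.0424). Every Mstn-null array lay below every control for 23 of the 39 genes in experiment 1, where 13.9% of all genes did so, and for 18 in experiment 2, where 5.52% did. That held in both experiments for 13 of 39 genes against 2.57% of all genes: Idh2, Mdh1, Fh1, Sdha, Dld, Pdha1, Pdhb, Pdhx, Pdk1, Dbt, Bckdhb, Auh and Pcca.

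**Figure D4:**
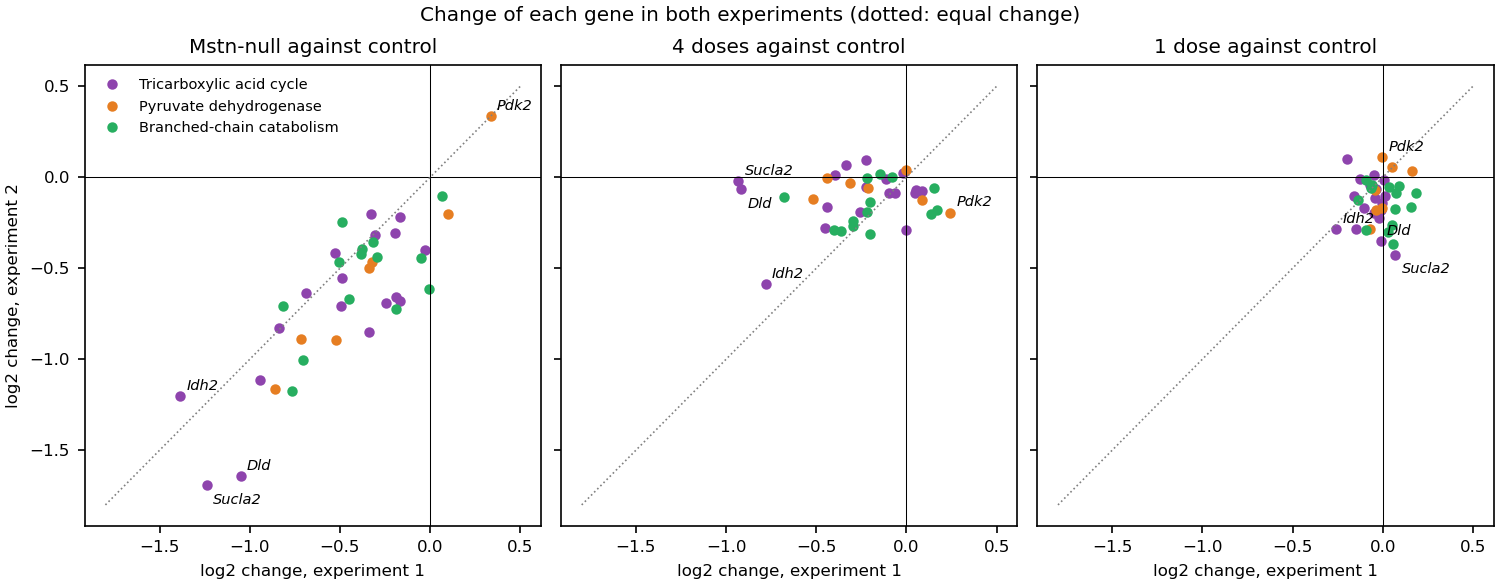
Log2 change of each of the 39 genes in experiment 1 (horizontal) and experiment 2 (vertical), for each class against control, coloured by pathway, with a dotted line of equal change. In Mstn-null muscle 36 genes are negative in both experiments and Pdk2 is positive in both, while after 4 doses Sucla2 and Dld are low in experiment 1 alone and Idh2 in both.

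The range of values on an array moved with the Mstn-null class. The interquartile range of the log2 values over all genes was 2.39 to 2.44 on the Mstn-null arrays of experiment 1 against 2.47 to 2.74 in controls, and 2.14 to 2.42 against 2.50 to 2.65 in experiment 2. The difference within experiments was -0.25 (exact permutation p = 0.000117, two-sided, over 25740 regroupings), against -0.08 after 1 dose (exact p = 0.103) and -0.09 after 4 doses (exact p = 0.287). With that range as a covariate, 7 of the 39 genes passed, all lower, where 1.36% of all genes passed as lower: Idh2 (-0.87, limma adjusted p = 0.000376), Mdh1, Fh1, Sucla2, Pdha1, Pdhb and Pdhx. Of the 39 genes, 34 were among the 1994 genes with the highest mean value. Of those 1994 genes, 43.6% fell in Mstn-null muscle (median change -0.19), and 31 of the 34 fell. With the range as a covariate, 3.61% of those 1994 genes passed as lower, and 6 of the 34 did. Idh2, Mdh1, Sucla2, Pdha1, Pdhb and Pdhx were called under every one of the 46 alternatives run for this comparison. Without the 6 arrays whose range was under 2.3, 29 of the 39 genes were called, where 25.5% of all genes were. After quantile normalization, which gives every array the same distribution, Sdhb, Sdhc, Dlst, Ogdh, Cs, Mdh2, Bcat2, Bckdha, Hibadh and Aldh6a1 were no longer called.

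**Figure D5:**
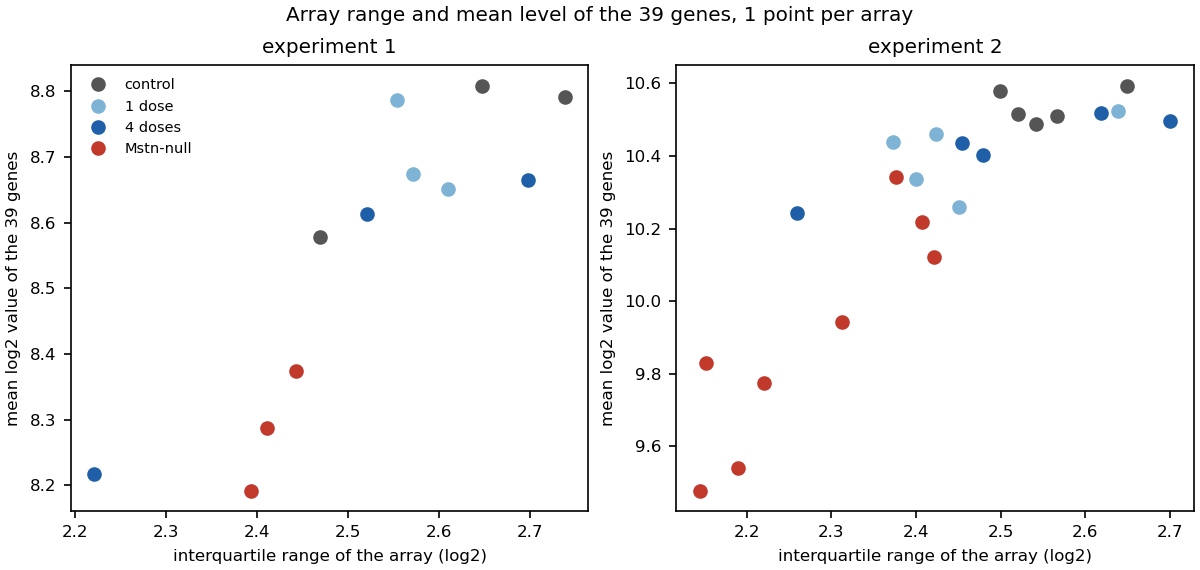
Interquartile range of the log2 values on each array (horizontal) against the mean log2 value of the 39 genes on it (vertical), 1 point per array, coloured by class. Mstn-null arrays combine a narrow range with low values in both experiments, and the array of 4 doses with the narrowest range, 2.22 in experiment 1, has the lowest mean of its class.

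Markers of other fibres and cells moved as well, and their part in the result was not tested. For comparison, 16.4% of all genes passed as lower in Mstn-null muscle and 25.4% as higher. All 10 slow-fibre markers fell in Mstn-null muscle (median change -2.22), with a mean value of 5.70 to 6.95 against 7.54 to 9.20 in controls of experiment 1 and of 6.77 to 9.38 against 9.91 to 10.55 in experiment 2. Of 11 mitochondrial import, channel and chaperone genes outside these pathways, 8 fell (median -0.42). Among endothelial markers 2 of 5 fell (Pecam1 and Egfl7), with a mean of 6.05 to 6.24 against 6.38 to 6.86 and of 7.65 to 8.63 against 8.45 to 8.54. Among macrophage markers 3 of 5 rose (Adgre1, Cd68 and Csf1r), with a mean of 4.78 to 5.04 against 4.62 to 5.21 and of 6.60 to 7.45 against 6.35 to 6.79. None of 7 adipocyte markers passed (median change -0.16).

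Other genes of the same pathways moved in part the same way in Mstn-null muscle, where 16.4% of all genes passed as lower and 25.4% as higher. Of 18 further genes around the cycle and pyruvate, 8 fell and 0 rose: Pdk4, the kinase gene induced by fasting, with a change of -1.01, Idh1, the cytosolic isocitrate dehydrogenase, with -0.94, Got1, the cytosolic aspartate aminotransferase, with -0.63, and Sdhaf2, an assembly factor of succinate dehydrogenase, with -0.59 had the smallest p. Of 17 further branched-chain genes, 11 fell and 3 rose. Those with the smallest p were Oxct1, which activates ketone bodies, with a change of -0.90, Echs1, an enoyl-CoA hydratase, with -0.84, Acat1, the mitochondrial thiolase, with -1.02, and Mmut, methylmalonyl-CoA mutase, with -1.09. The genes that rose were Bcat1, the cytosolic aminotransferase, Slc7a5, a transporter of large neutral amino acids, and Abat, 4-aminobutyrate aminotransferase, with changes of 0.17, 0.24 and 0.19. Of 3 regulators, Klf15, which in mouse muscle promotes branched-chain catabolism, fell with a change of -0.26 (limma adjusted p = 0.0184). Ppargc1a, the coactivator of mitochondrial biogenesis, and Esrra, an oestrogen-related receptor, had changes of -0.27 and -0.26 and did not pass.

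After 4 doses of ActRIIB-Fc, Idh2 and Bckdhb fell and the other 37 genes did not pass. Over all genes 3.14% passed, 1.23% as lower. The median change was -0.12 over the 39 genes and 0.02 over all genes. Idh2 measured 8.46, 8.73 and 8.21 after 4 doses in experiment 1 and 9.65, 9.97, 9.46, 9.86 and 9.94 in experiment 2, below every control in both. Its change was -0.66 ± 0.14 (SE, limma adjusted p = 0.00469), with -0.78 in experiment 1 and -0.59 in experiment 2. Bckdhb measured 6.95, 6.93 and 6.47 after 4 doses in experiment 1, below every control by a narrow margin, and 9.15, 8.97, 8.85, 8.93 and 9.09 in experiment 2, where it overlapped the lowest control. Its change was -0.33 ± 0.08 (SE, limma adjusted p = 0.00705), with -0.40 and -0.29 in the experiments. Neither passed in an experiment alone, where adjusted p was 0.122 and 0.118 for Idh2 and 0.322 and 0.0906 for Bckdhb, and both stayed called when any of the 35 arrays was left out. Of the 39 genes, 9 were past an unadjusted p of 0.05.

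In experiment 1, every array of 4 doses lay below every control for 12 of the 39 genes (7.8% of all genes), in experiment 2 for 5 (2.8%), and in both for 3, Idh2, Mdh1 and Sdha (0.808%). Replicate 3 of experiment 1 held the lowest values there, at 7.84 for Sucla2 against 8.56 and 9.02 on the other arrays, and at 7.08 for Dld against 8.20 and 8.41. That array also had the narrowest range of its class, 2.22. The change of Sucla2 over both experiments was -0.36 ± 0.26 (SE, limma adjusted p = 0.553) and that of Dld was -0.38 ± 0.25 (SE, limma adjusted p = 0.510). Pdk2, which rose in Mstn-null muscle, had a change of -0.03 ± 0.11 (SE, limma adjusted p = 0.935), with a 95% confidence interval from -0.26 to 0.20. No gene passed the test of a difference between the experiments (smallest limma adjusted p = 0.690, for Pdk2, with 0 of 39 past an unadjusted p of 0.05), where 0.00502% of all genes did.

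Of the further genes, Got1 and Pdp2, a phosphatase catalytic subunit, fell after 4 doses with changes of -0.44 (limma adjusted p = 0.0230) and -0.36 (limma adjusted p = 0.0304), and none of the 17 branched-chain genes passed. Klf15 fell with a change of -0.45 (limma adjusted p = 0.00344). Of the slow-fibre markers 9 of 10 fell (median change -1.49), with a mean of 6.12 to 7.34 in experiment 1 and 7.74 to 9.57 in experiment 2. None of the 11 mitochondrial genes passed (median -0.14). Among macrophage markers 4 of 5 rose (Adgre1, Cd68, Csf1r and Cd163), with a mean of 4.99 to 5.37 and 7.20 to 7.52. For comparison, 1.23% of all genes passed as lower after 4 doses and 1.91% as higher. The part of these genes and markers in the Idh2 and Bckdhb results was not tested.

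After 1 dose, 0 of the 39 genes passed in limma, where 1.11% of all genes did, and 1 was past an unadjusted p of 0.05. The smallest adjusted p was 0.267, for Pcca, with a change of -0.22 ± 0.08 (SE). Idh2 measured 9.10, 9.10 and 8.76 in experiment 1 and 10.17, 9.74, 10.21, 10.12 and 10.16 in experiment 2, where every array lay below the controls. Its change of -0.27 ± 0.14 (SE) did not pass (limma adjusted p = 0.452). The values leave room for changes of some size, since the 95% confidence intervals of the 39 genes reached down to -0.76 (Sucla2) and up to 0.30 (Pdk2). Every array of 1 dose lay below every control for 1 gene in experiment 1 (Sdhd; 4.47% of all genes) and for 4 in experiment 2 (Aldh6a1, Idh2, Idh3b and Ogdh; 2.94%), with 0 in common (0.391%). No gene passed the test between experiments (smallest limma adjusted p = 0.964, 0 of 39 past an unadjusted p of 0.05), as was the case for 0% of all genes. None of the slow-fibre markers passed after 1 dose (median change -0.93).

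No difference between the doses was established for any of the 39 genes. Comparing 4 doses with 1 dose, 0 passed in limma, where 0.321% of all genes did, and 3 were past an unadjusted p of 0.05. The smallest adjusted p was 0.373, for Bcat2, with a change of -0.25 ± 0.09 (SE). For Idh2 the difference was -0.38 with a 95% confidence interval from -0.68 to -0.09, and for Bckdhb -0.20 with an interval from -0.36 to -0.05, neither of which passed after adjustment (adjusted p = 0.378 and 0.377).

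Treated muscle had higher transcripts than Mstn-null muscle for most of the 39 genes. Against Mstn-null, 27 genes were higher and Pdk2 was lower after 4 doses, where 20.2% of all genes passed, 11.4% as higher. Fh1 had the smallest p, with a difference of 0.60 ± 0.10 (SE, limma adjusted p = 9.51e-05), and Sucla2 the largest difference, 1.20. Of the 11 genes that did not pass, 7 were of branched-chain catabolism: Bckdha, Bckdhb, Bckdk, Bcat2, Mccc1, Pcca and Aldh6a1. After 1 dose, 30 genes were higher than in Mstn-null muscle and 0 were lower, where 16.8% of all genes passed, 10.9% as higher. Idh2 had the smallest p there, with a difference of 0.99 ± 0.13 (SE, limma adjusted p = 1.17e-05). Both comparisons use the same Mstn-null arrays. With the range of each array as a covariate, 5 genes (Fh1, Mdh1, Pdhb, Pdhx and Pdk1) were higher after 4 doses, where 1.1% of all genes were, and 12 after 1 dose, where 1.31% were. In experiment 1 alone 0 were higher after 4 doses and 8 after 1 dose, where 0.00502% and 1.61% of all genes were.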

How the data were processed

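Quadriceps RNA was measured on 35 arrays. As deposited, expression is on a log2 scale (base 2 is read from how far the values span). RMA is named in the submitters' processing notes beside limma 3.4.4 and R 2.11.1, with no role given. Whether the experiments were normalized together, and the build behind the probes, are not given in the sources used here. Of 35556 rows, 21789 carried 1 gene symbol and were used, which gave 19938 genes at 1 row per gene (the highest mean), with no filter on dim genes. Classes were compared with limma 3.58.1 (R 4.3.3, two-sided, functions lmFit and eBayes) with class and experiment as terms over all arrays, and a fit of 8 group means tested differences between experiments. The labels call samples of a group biological replicates, and their number limits the precision; signal over background was not analysed here. Promoter letters were searched in RefSeq sequences. Arrays of a group correlated between 0.954 and 0.996 across genes, and the closest pair still differed by a mean of 0.117 on the log2 scale.

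The members and lists were chosen with earlier results of these data known. Values by array are given for the 4, 2 and 4 genes of the TCA cycle, pyruvate dehydrogenase and branched-chain groups with the smallest p in Mstn-null against control, for calls in the opposite direction or after a dose, and for the smallest change of each group. Further pathway genes are named up to 4 a list by smallest p, with those called after a dose. Bcat1, Slc7a5, Abat and single genes of marker lists fall outside this rule and were chosen after their values were seen. Alternatives were quantile normalization, median centring, the array's interquartile range as a covariate, a filter on dim genes, the mean of a gene's rows, the classes compared alone, each experiment alone, array weights, a replicate block and leaving out each array. Some listed genes were not analysed here. The fits were tested on simulated data.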

Additional observations from a re-analysis of the deposited data

Results flagged for a closer look

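Single arrays stood far from the rest of their group in 8 of 168 checks, where chance gives about 1 in 20. The checks were made within groups of 5 or 8 arrays, and not all of them were of single genes. In controls of experiment 2, replicate 2 was low for Dbt at 9.20 (the nearest other array had 9.40) and for Acadsb at 9.60 (nearest 9.75). Replicate 3 of 4 doses in experiment 2 was low for Suclg2 at 9.51 (nearest 9.83). Among Mstn-null mice of experiment 2, replicate 5 was high for Auh at 9.59 (nearest 9.13). After 1 dose in experiment 2, replicate 2 was low for Idh2 at 9.74 (nearest 10.12), and replicate 5 was low for Idh3b at 12.15 (nearest 12.44), for Fh1 at 10.47 (nearest 10.81) and for Hibadh at 10.92 (nearest 11.08).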

How the results depend on the processing

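For Mstn-null against control, 37 of the 39 genes were called, 7 with the array range as a covariate, 9 in experiment 1 alone, and between 27 and 37 under the other alternatives. Of all genes, 41.8% were called in the main fit, 2.99% with that covariate and 2.39% in experiment 1 alone. For 4 doses the 2 calls became 4 when only those classes were fitted (Bcat2 and Mdh1 added), 6 with array weights (Bcat2, Mccc1, Ogdh and Pcca added) and 0 in experiment 1 or experiment 2 alone. Experiments 1 and 2 alone called 0.266% and 2.62% of all genes for 4 doses against control. After 1 dose, array weights called 1 gene, Pcca. Against Mstn-null, the 28 calls of 4 doses became 5 with the range covariate and 0 in experiment 1 alone, and the 30 calls of 1 dose became 12 and 8. The matching shares of all genes were 20.2%, 1.98% and 0.015% for 4 doses, and 16.8%, 2.51% and 2.01% for 1 dose. Shares under array weights, quantile normalization and the classes compared alone are not given here. Ogdh in Mstn-null muscle turned to 0.036 after quantile normalization, and Dlst in 1 dose against Mstn-null turned to -0.024 in experiment 1 alone. Leaving out each array gave 35 to 37, 0 and 2 calls against control for Mstn-null, 1 dose and 4 doses, 0 for 4 doses against 1 dose, 25 to 31 and 29 to 33 against Mstn-null for 4 doses and 1 dose, and 0 to 2 for the difference between experiments in Mstn-null. Over all genes, 5062 were higher and 3275 lower in Mstn-null muscle, and 1905 and 4189 with arrays centred on their medians. The cause of these moves was not tested. Each experiment alone holds fewer arrays, and the array range differs between Mstn-null and control arrays. The array weights did not fully converge. Without the 6 arrays of narrow range, an alternative chosen after seeing the data, 29, 0 and 2 genes were called against control (25.5%, 2.25% and 3.22% of all genes).

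The labels share replicate numbers across classes, and no pairing of same-numbered samples was detected. Deviations of same-numbered arrays correlated between -0.53 and 0.41 in experiment 1 (median 0.02). In experiment 2 they correlated between -0.60 and 0.38 (median -0.00296). Such values cannot exclude a pairing. With the replicate number as a block, 30, 0 and 2 genes were called against control for Mstn-null, 1 dose and 4 doses (25%, 1.16% and 3.28% of all genes), 0 for 4 doses against 1 dose (0.296%), and 19 and 23 for 4 doses and 1 dose against Mstn-null (6.08% and 6.24%). In experiment 2 only Mstn-null mice carry the numbers 6, 7 and 8, so those arrays add nothing to the class differences in this fit. All of them had a range under 2.3.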

Other observations

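Among the 11 measured mitochondrial genes outside these pathways, those with the largest falls in Mstn-null muscle were the chaperonin gene Hspd1, with a log2 change against controls of -1.17 ± 0.20 (SE, limma adjusted p = 6.70e-05), the mitochondrial transcription factor Tfam, with -1.11 ± 0.19 (SE, limma adjusted p = 6.35e-05), and the import motor subunit Timm44, with -0.91 ± 0.13 (SE, limma adjusted p = 3.61e-06). They were named after their values were seen. Tfam lay at 5.45 to 5.79 in Mstn-null mice against 6.27 to 6.41 in controls of experiment 1 and at 5.84 to 7.67 against 7.97 to 8.28 in experiment 2, with no overlap; fitted in experiment 1 alone it did not pass (limma adjusted p = 0.108). The channel gene Vdac2 (0.01 ± 0.11), the prohibitin Phb2 (-0.07 ± 0.07) and the import channel gene Timm23 (-0.27 ± 0.14) did not pass. Hspd1, Vdac2 and Timm23 had 2, 2 and 4 array rows, of which the brightest on average was taken. Whether that row measures the named gene alone was not tested.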
